A study of Mus musculus with 18 samples.

Results

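The plasminogen activator system was followed through 4 genes in mouse embryonic fibroblasts (MEF), out of 55450 genes in the expression table. These are Plau (urokinase), Plat (tissue plasminogen activator), Plaur (the urokinase receptor) and Serpine2 (protease nexin 1, a serpin that inhibits both activators), and they were picked by gene name. RNA was sequenced in 18 libraries, 3 in each of 6 groups. MEF from a commercial source were transfected with empty pcDNA3, with Col1a1-miR-29b or with CMV-miR-29b, and 6 h later each was left untreated or given TGF-β for 24 h. In both miR-29b plasmids the human miR-29b-1 gene stands with EGFP under the named promoter, the rat Col1a1 promoter or the viral CMV promoter, and a second reporter, mRFP1, has its own SV40 promoter. All 6 groups went through the same lipid transfection. DNA was dosed by molecule number, so cells given the larger Col1a1-miR-29b plasmid were given a greater mass of DNA, and the promoter and the DNA mass cannot be told apart. The control was an empty pcDNA3, so against it the miRNA and the reporters differ together and cannot be told apart either. The 3 libraries of a group are described as repeated experiments on the purchased cells, with no mention of separate animals, so p-values measure the spread between these experiments.

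Plasmin is the protease that dissolves fibrin and degrades matrix proteins. It is cut from plasminogen by urokinase or tissue plasminogen activator, urokinase works largely while bound to its receptor on the cell surface, and serpins such as protease nexin 1 stop both activators. In fibroblasts the balance between activators and serpins helps to set how much matrix is broken down. miR-29b is a short RNA that lowers collagen transcripts by pairing its seed with their 3′ untranslated regions (UTRs).

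Total counts per library ran from 65898017 to 80332633. Of 9 fibroblast markers, 7 were over 1 CPM (read counts scaled to a common depth) in the mean of all 18 libraries. Thy1 was under it and Lum was at 0. The summed level of the 9 was 1780 to 2630 CPM without TGF-β and 3510 to 5560 CPM with it. Collagen genes are among these markers. Lists of 5 markers each for epithelial, endothelial, blood, skeletal muscle and neural cells had 0 or 1 marker over 1 CPM in the same mean. The summed endothelial markers, of which Cdh5 was the one over 1 CPM, were at 1.14 to 1.82 CPM in empty vector cells and 3.17 to 3.63 with TGF-β, 1.67 to 2.04 and 2.66 to 3.33 in Col1a1-miR-29b, and 1.68 to 2.33 and 2.9 to 3.64 in CMV-miR-29b cells. Over all groups the summed blood markers, with Cd68 over 1 CPM, were at 9.36 to 13.9 CPM. Skeletal muscle markers, with Des over it, were at 13.6 to 21.5 CPM. Neural markers were at 1.49 to 3.83 CPM and epithelial ones at 0.115 to 0.964. For all these lists their part in the results was not tested. The third library of both Col1a1-miR-29b groups carries a replicate letter that no sample title has, and it is called the unlettered library here. The row of mouse Mir29b-1 held 110 to 309 counts in CMV-miR-29b libraries without TGF-β and 203 to 293 with it. It held 0 to 1 in Col1a1-miR-29b libraries, 2 to 6 in those with TGF-β and 0 in all 6 empty vector libraries. These counts come from poly(A) libraries, and the mature miRNA was not measured separately.

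The miRNA is shown first, since its seed was looked for in the transcripts of all 4 genes. The vectors carry the human gene, and the mouse sequence is the one printed. The mature mouse sequence from RefSeq (GRCm38.p6, chr6:31063025-31063047, minus strand, within Mir29b-1) is given with its seed, bases 2 to 8, in capitals.
miR-29b-3p: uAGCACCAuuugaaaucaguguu
The letters that pair with this seed are TGGTGCT, on the transcript's strand. In the longest annotated 3′ UTR of each gene (GENCODE M21) these letters were absent from Plau over 935 bases, from Plat over 738, from Plaur over 496 and from Serpine2 over 808. Of 21020 genes with a 3′ UTR, 13.1% held the letters at least once. The lack of a match says only that these letters are not in this window.

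Plaur, at chr7:24462484-24475968 on the plus strand (GRCm38; ENSMUSG00000046223), was the gene of the set that TGF-β raised most clearly. In empty vector cells its normalised counts (read counts scaled for library size) were 1499, 1501 and 1489 untreated and 2515, 2521 and 2890 after TGF-β. The TGF-β libraries all lay above the untreated ones. This is a rise of 1.77-fold, a log2 fold change of 0.82 ± 0.086 (SE, n = 3 against 3), with an adjusted p of 1.33e-05 in edgeR's quasi-likelihood test. In Col1a1-miR-29b cells the counts were 1685, 1575 and 1325 untreated and 2823, 3117 and 2741 after TGF-β. That rise was 1.89-fold, 0.92 ± 0.086 on the log2 scale with an adjusted p of 5.22e-06, under the threshold of 0.05. In CMV-miR-29b cells the counts went from 1402, 1305 and 1371 to 2276, 2532 and 2432. The rise was 1.78-fold, 0.83 ± 0.086 on the log2 scale with an adjusted p of 1.45e-05. All 9 TGF-β libraries were above all 9 untreated libraries, whatever the vector. In bulk RNA, more cells making a transcript and more transcript per cell cannot be told apart. Leaving out any of the libraries in turn kept all 3 rises past the threshold.

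The vectors did not move Plaur past the threshold. Its log2 fold change between Col1a1-miR-29b and empty vector was 0.03 ± 0.086 without TGF-β and 0.13 ± 0.085 with it. For CMV-miR-29b against empty vector it was -0.14 ± 0.086 without TGF-β (adjusted p = 0.942) and -0.13 ± 0.085 with TGF-β. Without TGF-β the lowest empty vector library, at 1489, was above the highest CMV-miR-29b library, at 1402. Between CMV-miR-29b and Col1a1-miR-29b the log2 fold change was -0.26 ± 0.085 with TGF-β, again without overlap of the libraries, at an adjusted p of 0.13. For 3 libraries against 3, a lack of overlap has an exact permutation p of 0.1. The share of all genes without overlap was not counted, here or in the other comparisons. Across the 6 groups the order of mean normalised counts was CMV-miR-29b at 1359 ± 49.2 (SD, n = 3), empty vector at 1496 ± 6.38, Col1a1-miR-29b at 1528 ± 184, then with TGF-β CMV-miR-29b at 2413 ± 129, empty vector at 2642 ± 215 and Col1a1-miR-29b at 2894 ± 198. Among untreated groups and among TGF-β groups, neighbours overlapped in their libraries or differed without passing the test.

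**Figure D1:**
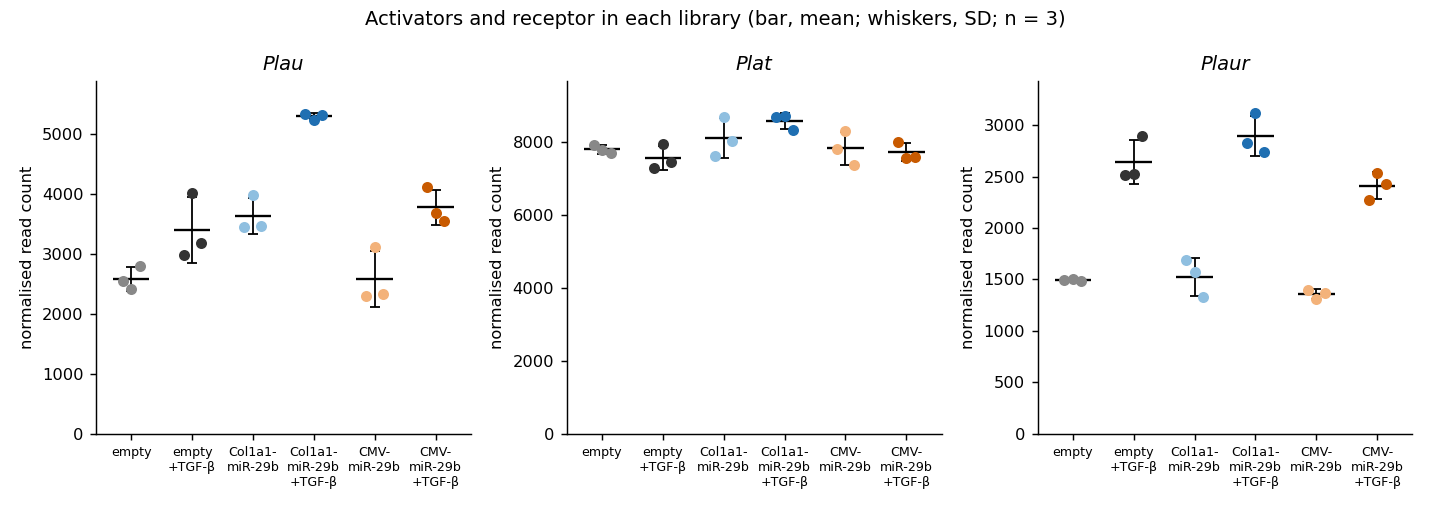
Normalised read counts (y axis) of Plau, Plat and Plaur in each library (points) of the 6 groups (x axis), with the mean and SD of 3 libraries. Plaur forms a low level without TGF-β and a high level with it, Plau is highest in Col1a1-miR-29b cells with TGF-β at 5237 to 5340, and Plat lies between 7294 and 8717 throughout.

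The stretch before the start of Plaur is shown because this was the gene that rose in all 3 vectors. RefSeq promoter sequences were matched for 2 of the 4 genes, Plaur and Serpine2. The 250 bases before the Plaur start (GRCm38.p6, chr7:24462233-24462482, plus strand) are given with motif matches in capitals.
Plaur promoter: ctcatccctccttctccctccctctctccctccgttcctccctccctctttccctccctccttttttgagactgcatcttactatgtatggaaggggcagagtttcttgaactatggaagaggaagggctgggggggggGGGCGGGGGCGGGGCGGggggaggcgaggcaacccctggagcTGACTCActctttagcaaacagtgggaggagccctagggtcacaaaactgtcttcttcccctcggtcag
The letters searched were TGAGTCA (AP-1), CAGAC (Smad) and GGGCGG (GC box) on both strands, and TATAAA on the given strand. AP-1 letters stood once, at position -69 from the start, and 3 GC boxes stood at positions -111, -105 and -100, of which the last pair share a base. Among 32851 promoters cut to the same length, 4.46% held the AP-1 letters, 32.7% a GC box, 42.2% the Smad letters and 7.59% the TATA letters, and Plaur held neither of the latter in this window. These are descriptions of letters and not of binding.

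Plau, at chr14:20836660-20843385 on the plus strand (GRCm38; ENSMUSG00000021822), was higher with TGF-β and higher in Col1a1-miR-29b cells, so that the group given both stood above all others. In empty vector cells its normalised counts were 2543, 2408 and 2793 untreated and 2985, 4021 and 3173 after TGF-β. The libraries did not overlap, but the log2 fold change of 0.39 ± 0.12 (1.31-fold) missed the threshold at an adjusted p of 0.0775. In Col1a1-miR-29b cells the counts were 3444, 3980 and 3470 untreated and 5340, 5237 and 5311 after TGF-β. Here Plau rose 1.46-fold, 0.54 ± 0.12 on the log2 scale, with an adjusted p of 0.0159. In CMV-miR-29b cells the counts were 2297, 3115 and 2333 untreated and 4109, 3686 and 3548 after TGF-β. The rise was again 1.46-fold, 0.55 ± 0.12 on the log2 scale, with an adjusted p of 0.0136.

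That the rise of Plau passed in both miR-29b groups and missed in the empty vector does not show that the groups respond differently. The difference in TGF-β response from the empty vector was 0.15 ± 0.17 on the log2 scale for Col1a1-miR-29b (adjusted p = 1) and 0.16 ± 0.17 for CMV-miR-29b (adjusted p = 0.96). DESeq2 called the rise in the empty vector too, at an adjusted p of 0.0316. The rise in Col1a1-miR-29b cells lost its call without library c (0.0845) or the unlettered library (0.0828) of the untreated group and without library c (0.0542) or the unlettered library (0.0513) of the TGF-β group. The rise in CMV-miR-29b cells lost it without library c (0.0823) or e (0.0743) of the untreated group or c (0.0651) of the TGF-β group.

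Plat, at chr8:22757727-22782844 on the plus strand (GRCm38; ENSMUSG00000031538), did not pass the test for TGF-β in any vector. In empty vector cells its normalised counts were 7929, 7767 and 7698 untreated and 7294, 7937 and 7457 after TGF-β, which differed by -0.04 ± 0.054 on the log2 scale (adjusted p = 0.79). In Col1a1-miR-29b cells they were 7617, 8695 and 8036 against 8677, 8717 and 8317, which differed by 0.08 ± 0.054 (adjusted p = 0.609). In CMV-miR-29b cells they were 7816, 8286 and 7365 against 8000, 7565 and 7599, which differed by -0.02 ± 0.054 (adjusted p = 0.941). The groups with and without TGF-β overlapped for every vector. The precision was higher than for Plau and Plaur, and all 3 estimates were within 0.1 of 0 on the log2 scale.

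Serpine2, at chr1:79794197-79858696 on the minus strand (ENSMUSG00000026249), was close to unread in these cells. Its row held 13 counts over all 18 libraries and 0 in 14 of them. The 4 libraries with a count were all among the 9 TGF-β libraries, and the highest held 4 counts. With 4 counts at the most in a library, beside the limit of 3 counts that a count of 0 allows, no difference was detectable at this depth, and the row did not pass the filter on low counts. That limit takes each count as a separate read. Of counts from 1 to 40, 33.8% to 36.7% per library were multiples of 4, where an even spread gives 25%. In the table this gene ends at 79858696, whereas GENCODE M21 of GRCm38 ends it at 79861180, and the other 3 genes have identical coordinates in both. The part of the gene model in the low count was not tested.

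Of the 3 tested genes, TGF-β therefore raised 1 in empty vector cells, where 5.88% of all 21161 tested genes were called, 2 in Col1a1-miR-29b cells, where 4.32% were called, and 2 in CMV-miR-29b cells, where 4.95% were called. None of the 3 was called lower. These 3 comparisons rest on separate libraries. In neither contrast of the TGF-β response between a miR-29b vector and the empty vector was a member called. The edgeR test called 0% of all genes in both, with an unadjusted p under 0.05 for 961 genes in the first and 1129 in the second, and none of the 3 members among them.

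**Figure D2:**
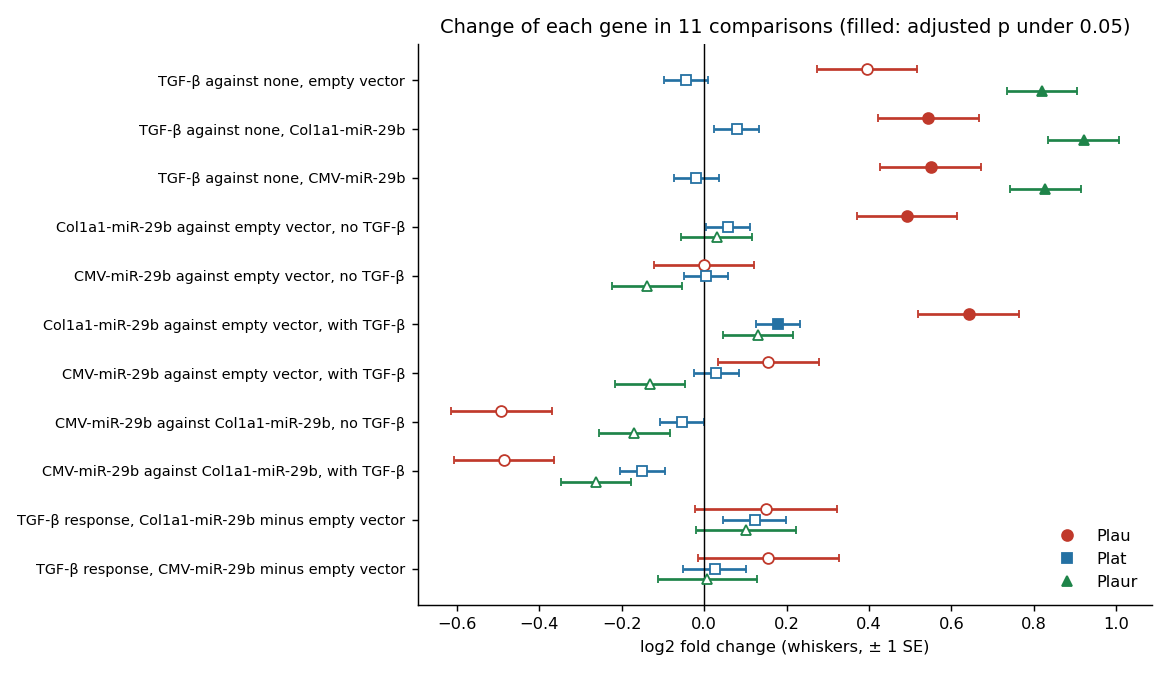
Log2 fold change (x axis, whiskers 1 SE) of Plau, Plat and Plaur in 11 comparisons (y axis); filled symbols have an adjusted p under 0.05. Plaur is filled in the 3 TGF-β comparisons, Plau in TGF-β with either miR-29b vector and in both comparisons of Col1a1-miR-29b with empty vector, and Plat only in Col1a1-miR-29b against empty vector with TGF-β.

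The Col1a1-miR-29b vector was set against the empty vector to ask what it changes before and after TGF-β. Plau was the gene of the set that differed in both settings. Without TGF-β it was 1.41-fold higher, 0.49 ± 0.12 on the log2 scale with an adjusted p of 0.0284, and the lowest Col1a1-miR-29b library, at 3444, was above the highest empty vector library, at 2793. With TGF-β it was 1.56-fold higher, 0.64 ± 0.12 on the log2 scale with an adjusted p of 0.00349, and all 3 Col1a1-miR-29b libraries, at 5237 or more, were above 4021. The second difference kept its call when each library was left out in turn. The first lost it without library c (0.0504), d (0.132) or the unlettered one (0.0583) of Col1a1-miR-29b, or without library c (0.0946) or d (0.112) of the empty vector.

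Plat was higher in Col1a1-miR-29b than in empty vector cells with TGF-β, by 1.13-fold, 0.18 ± 0.054 on the log2 scale with an adjusted p of 0.0381, and the libraries did not overlap. This small difference was past the threshold in 8 of 18 settings, and it lost its call without library c (0.123), d (0.128) or the unlettered one (0.0621) of Col1a1-miR-29b with TGF-β, or without library c (0.166) or e (0.125) of the empty vector with TGF-β. Without TGF-β the log2 fold change of Plat was 0.06 ± 0.054. So 1 of 3 tested members was called without TGF-β, where 6.27% of all genes were called, and 2 of 3 with TGF-β, where 12.9% were called. The share of all genes called was thus higher with TGF-β as well.

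CMV-miR-29b, the vector with the most Mir29b-1 counts, called none of the members against the empty vector. Without TGF-β the log2 fold change of Plau was 0.000244 ± 0.12, that of Plat 0.00454 ± 0.054 and that of Plaur -0.14 ± 0.086, and the first 2 changed sign with the scaling or filter used. With TGF-β the values were 0.16 ± 0.12, 0.03 ± 0.054 and -0.13 ± 0.085. The counts of 0 are from edgeR, DESeq2 also called 0, and no member had an unadjusted p under 0.05 in either setting. Of all 21161 tested genes, 1156 had such an unadjusted p without TGF-β and 2531 with it. Over all genes the vector had 0.00473% called without TGF-β, a single gene, and 0.00945% with it, and the members' 0 of 3 is read beside these shares. These shares moved with the setting, as 160 genes were called in place of 2 without empty vector library d with TGF-β, and DESeq2 called 37 genes without TGF-β and 284 with it.

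Set against each other, the vectors differed by -0.49 ± 0.12 for Plau on the log2 scale without TGF-β (adjusted p = 0.0532) and by -0.49 ± 0.12 with it (adjusted p = 0.0541), CMV-miR-29b being lower in every library. Both just missed the threshold, and without CMV-miR-29b library d the first passed it, at 0.015. DESeq2 called both, at 0.00568 and 0.00627. For Plat the values were -0.05 ± 0.054 and -0.15 ± 0.054 (adjusted p = 0.716 and 0.169), and the groups with TGF-β did not overlap. In edgeR 0 of 3 members were called in either comparison, where 1.81% and 1.93% of all genes were called. An unadjusted p under 0.05 was held by 1 member without TGF-β, beside 3478 of all 21161 tested genes. With TGF-β it was held by 3 members, beside 3305 of all tested genes. The numbers of genes called moved with the libraries kept. Leaving out each in turn gave 61 to 428 genes in place of 382, the lowest without CMV-miR-29b library c, and 40 to 137 in place of 408, the lowest without CMV-miR-29b library d. The Col1a1-miR-29b libraries are shared between these comparisons and those with the empty vector.

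Ordered by their mean normalised counts, the groups ran for Plau from empty vector at 2581 ± 196 (SD, n = 3) and CMV-miR-29b at 2582 ± 462, through empty vector with TGF-β at 3393 ± 552, Col1a1-miR-29b at 3631 ± 303 and CMV-miR-29b with TGF-β at 3781 ± 292, to Col1a1-miR-29b with TGF-β at 5296 ± 53.3. The 3 middle groups overlapped in their libraries, as did the lowest pair, and the highest CMV-miR-29b library, at 3115, was above the lowest of empty vector with TGF-β, at 2985. The top group overlapped none. For Plat the means ran from 7563 ± 334 in empty vector cells with TGF-β to 8571 ± 220 in Col1a1-miR-29b cells with TGF-β, and each neighbour overlapped the next.

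Levels of different genes were compared per transcript length, as FPKM (fragments per kilobase of transcript, scaled to depth), in the 16 libraries for which FPKM could be assigned. In empty vector cells Plat stood at 15 ± 0.132 FPKM (SD, n = 3), Plau at 13.1 ± 1.05 and Plaur at 6.86 ± 0.028. Serpine2 was listed at 0.0001, the table's stand-in for 0, in every library without TGF-β.

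The ratio of Plau to Plat FPKM was higher with TGF-β in each vector, with no overlap of libraries, and higher in Col1a1-miR-29b cells than in empty vector cells in both settings. It was 0.873 ± 0.0733 (SD, n = 3) in empty vector cells and 1.18 ± 0.138 with TGF-β, 1.2 ± 0.0106 (n = 2) in Col1a1-miR-29b cells and 1.6 ± 0.0272 (n = 2) with TGF-β, and 0.867 ± 0.112 (n = 3) in CMV-miR-29b cells and 1.29 ± 0.0617 with TGF-β. Plau was below Plat in each untreated empty vector and CMV-miR-29b library and above it in every library of the other 4 groups, the lowest of these at 1.08. The untreated CMV-miR-29b libraries spanned those of the empty vector, and with TGF-β both sets overlapped. These ratios are a description and were not tested.

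**Figure D3:**
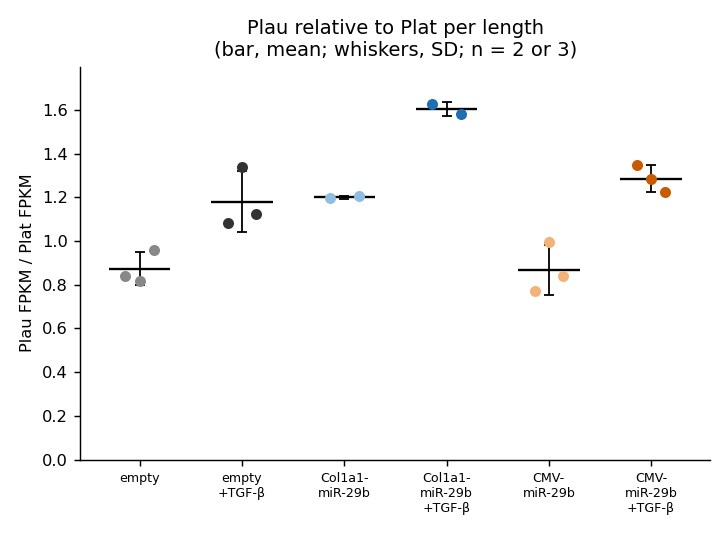
Ratio of Plau to Plat FPKM (y axis) in each library (points) of the 6 groups (x axis), with mean and SD of 3 libraries, or 2 for Col1a1-miR-29b. The ratio is highest in Col1a1-miR-29b cells with TGF-β, at 1.58 to 1.62, and its lowest groups are the untreated empty vector and CMV-miR-29b cells.

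The other genes of the pathway were taken as a list of 44, of which 30 passed the filter. TGF-β raised 2 of the 30 and lowered none in empty vector cells, a share near the 5.88% called over all genes. Lrp1, the endocytic receptor that clears activator-inhibitor complexes, went from 21081, 19627 and 19637 to 32499, 34722 and 36793 (0.79 ± 0.089, adjusted p = 2.96e-05). Pdgfc, a growth factor activated by tissue plasminogen activator, went from 281, 158 and 164 to 1308, 783 and 1706, a 6.29-fold rise (2.65 ± 0.27 on the log2 scale, adjusted p = 1.07e-05). In both genes the TGF-β libraries were above the untreated ones. Without empty vector library d with TGF-β, 2 list genes were called higher and 2 lower, and DESeq2, counts divided by 4, the filter of 10 counts, limma on log2(FPKM + 1) and total-count scaling each called 1 lower. Over all genes these settings called 540 to 736 lower, in place of 425.

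In both miR-29b vectors TGF-β raised 4 of the 30 list genes and lowered none in edgeR, where 4.32% of all genes were called in Col1a1-miR-29b and 4.95% in CMV-miR-29b cells. The 4 called by edgeR were Lrp1 (1.57-fold in both), Pdgfc (3.41-fold in Col1a1-miR-29b and 5.63-fold in CMV-miR-29b cells), S100a10 (1.14-fold and 1.13-fold) and F2r (1.14-fold and 1.16-fold). DESeq2 called 5 list genes higher and 2 lower in both. Over all 33471 genes it called 1317 in Col1a1-miR-29b and 1518 in CMV-miR-29b cells. S100a10 forms the annexin A2 complex that binds plasminogen at the cell surface. F2r, the thrombin receptor PAR1, lies outside the rule for named genes and was named after its values were seen. The median log2 fold change of the list was -0.0778 in empty vector, 0.0229 in Col1a1-miR-29b and -0.0689 in CMV-miR-29b cells, beside 0.0023, -0.00558 and -0.00255 over all tested genes. The calls thus sat in a few genes of the list and not in its middle. They came to 2 in Col1a1-miR-29b cells without untreated library c or the untreated library with no letter, and to 2 in CMV-miR-29b cells without untreated library c. Without untreated CMV-miR-29b library e, 3 were called higher and 2 lower, beside 489 higher and 322 lower over all genes. Total-count scaling called 2 higher and 1 lower in Col1a1-miR-29b cells, beside 537 and 357 over all genes. None of the list's genes was called in the contrasts of TGF-β response, where Pdgfc had -0.88 ± 0.37 (adjusted p = 1) for Col1a1-miR-29b.

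**Figure D4:**
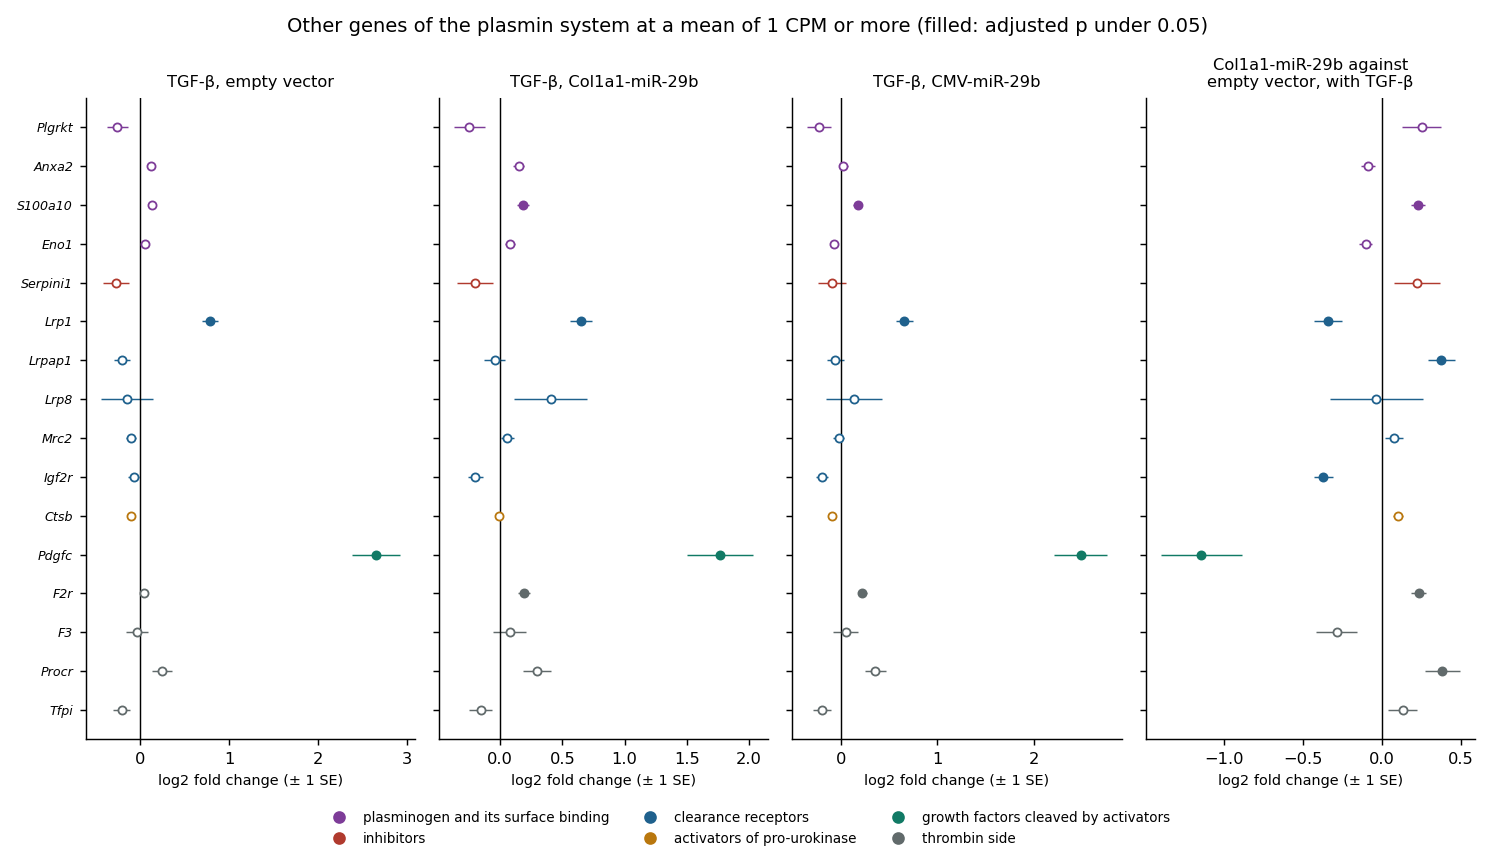
Log2 fold change (x axis, whiskers 1 SE) of the 16 tested list genes with a mean of 1 CPM or more (y axis, coloured by role) in 4 comparisons; filled symbols have an adjusted p under 0.05. Lrp1 and Pdgfc are filled and to the right with TGF-β in every vector, while Lrp1, Pdgfc and Igf2r are filled and to the left in Col1a1-miR-29b against empty vector with TGF-β.

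Plasminogen itself was hardly read. Plg, its gene, held 4 counts in one library and 6 in another, and 0 in the other 16. Its surface receptors were present. Plgrkt, a plasminogen receptor, had 7.1 ± 0.304 FPKM in empty vector cells and 5.79 ± 0.284 with TGF-β, and its fall did not pass the test (adjusted p = 0.304). Anxa2, the partner of S100a10, had 288 ± 12.6 and 305 ± 9.76 FPKM (adjusted p = 0.148), and S100a10 had 201 ± 8.79 and 214 ± 3.8 (adjusted p = 0.131). Lrp1, by comparison, stood at 13.6 ± 0.49 FPKM and at 22.9 ± 1.44 with TGF-β.

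Against the empty vector, Col1a1-miR-29b had 1 list gene higher, S100a10 at 1.13-fold, and 1 lower, Igf2r at 0.843-fold, without TGF-β. These 2 of 30 stood beside 6.27% of all genes, and leaving out any of the 6 untreated libraries gave 0 or 1 call. With TGF-β it had 4 higher and 4 lower, 8 of 30 beside 12.9% of all genes, and 4 in all without empty vector library e. The lower ones were Lrp1 (0.79-fold, adjusted p = 0.0196), Pdgfc (0.454-fold, 0.00926), Igf2r (0.774-fold, 0.00172) and Lrp2 (0.244-fold, 0.00405, at under 1 CPM on average), of which all but Pdgfc are endocytic receptors. The higher ones were S100a10 and F2r (1.17-fold each) and Procr and Lrpap1 (1.3-fold each). Igf2r, Lrp2, Procr and Lrpap1 were named after their values were seen. With TGF-β, Lrp1 held 27686, 28728 and 25808 normalised counts in Col1a1-miR-29b cells, all below the empty vector's 32499. Pdgfc held 528, 696 and 501, all below 783. CMV-miR-29b had 0 list genes called against the empty vector in either setting, and there Lrp1 was 0.924-fold and Pdgfc 0.707-fold with TGF-β (adjusted p = 0.676 and 0.455). The list's median log2 fold change was 0.09 for Col1a1-miR-29b with TGF-β and 0.0106 for CMV-miR-29b, beside 0.019 and -0.00314 over all tested genes. In these 4 comparisons and the 3 with TGF-β, placing list genes with a group at 0 at the floor of 3 counts left the medians as given.

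The 3′ UTRs of Lrp1 and Pdgfc each hold the seed-pairing letters once, unlike those of the 4 genes. They are shown because both transcripts were lower in Col1a1-miR-29b cells with TGF-β, with the 7 paired letters in capitals and positions counted from the first base after the stop codon, 22 for Lrp1 and 922 for Pdgfc. The match is a description of letters, and its part in the lower counts was not tested. Igf2r and Lrp2, also called lower there, and the list genes called higher were not looked up for these letters.
Lrp1: aggaaatagggTGGTGCTttttctagagg
Pdgfc: tcttccttgtaTGGTGCTagagcttagcg

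The genes most like each member over the 18 libraries were found by Pearson's r of log2 CPM among 13912 genes at a mean of 1 CPM or more. For Plau these were Hbegf (0.985), an EGF-family growth factor, Brd2 (0.966) and Klhl21 (0.963). For Plaur they were Igfbp7 (0.975), Fstl3 (0.973), an activin-binding protein, and Ccn4 (0.972). For Plat they were Sertad1 (0.889), Nol6 (0.862) and Plod1 (0.862), a collagen lysyl hydroxylase. Plau and Plaur had an r of 0.706 with each other, Plau and Plat 0.662 and Plat and Plaur 0.120. The points share groups, treatment and depth, so these values describe the 6 groups as much as the libraries.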

How the data were processed

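As deposited, the counts are whole numbers per gene without normalization, and the authors made them from poly(A) paired-end reads with HISAT2 and StringTie. The deposited FPKM values are also the authors' and hold 0.0001 in place of 0. The labels name mm9, but 52543 of 55450 genes have the coordinates of GRCm38 (GENCODE M21), which is used here. Total counts ran from 65898017 to 80332633, and of counts from 1 to 40, 33.8% to 36.7% per library were multiples of 4, where an even spread gives 25%. In both Col1a1-miR-29b groups, 1 column carries a letter found in no title, which counts as a library of that group without a letter, for counts alone, so 2 FPKM columns stayed unused.

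Counts were tested with edgeR 4.0.16 in R 4.3.3: filterByExpr (21161 genes), TMM, 6 group means, quasi-likelihood F tests, Benjamini-Hochberg adjustment over all genes and a threshold of 0.05 with no minimum fold. Standard errors came from the F statistic. Normalised counts are on the TMM scale, and log2 CPM used a prior count of 2. Alternatives were DESeq2 1.42.0, limma 3.58.1 on log2(FPKM + 1) and log2(FPKM + 0.1), other scalings and filters, a replicate block and leaving out libraries, and the fit was tested on simulated data. The members and gene lists were chosen with earlier results of these data known. Named are the members, list genes past the threshold for TGF-β in empty vector cells, 5 fixed genes (Plg, Plgrkt, Anxa2, S100a10, Lrp1) and the 3 genes most like each member. Of the list fixed for the pathway, 1 gene is not reported here and is left out of its counts.

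The letters c, d and e were checked as pairs on 13912 genes. Deviations from group means had a mean correlation of 0.00635 over 36 same-letter pairs and -0.0031 over 70 others, so the letters were not taken to pair libraries.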

Additional observations from a re-analysis of the deposited data

How the results depend on the processing

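Over the alternatives, 526 of the members' fold changes kept direction and side of the threshold, 31 lost their call, 8 gained one and 32 changed sign. The Plaur rises with TGF-β kept their calls in all settings.

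Counts of members called differed as follows, with the calls over all genes beside them. The settings tested 15805 to 33471 genes. DESeq2 called 2 for TGF-β in the empty vector in place of 1, with 1766 of 33471 genes in place of 1245 of 21161. For TGF-β in Col1a1-miR-29b cells, limma on either FPKM scale, the replicate block and the fit without the unlettered libraries (chosen after seeing the data) called 1 in place of 2, and leaving out each library gave 1 to 2. Over all genes, limma on log2(FPKM + 0.1) and log2(FPKM + 1) called 465 and 494 in place of 914. The replicate block called 394, the fit without the unlettered libraries 453, and leaving out each library 630 to 679. For TGF-β in CMV-miR-29b cells the groups compared alone gave 1, and leaving out each library 1 to 2. Over all genes these called 527 and 724 to 876, in place of 1047. For Col1a1-miR-29b against empty vector without TGF-β, limma on either scale, the replicate block and the fit without the unlettered libraries gave 0 in place of 1, and leaving out each library 0 to 1. Over all genes, limma on log2(FPKM + 0.1) and log2(FPKM + 1) called 390 and 481 in place of 1327. The replicate block called 161, the fit without the unlettered libraries 397, and leaving out each library 468 to 1043. With TGF-β, the filter of 1 count, the groups compared alone, limma on log2(FPKM + 0.1), the replicate block and the fit without the unlettered libraries gave 1 in place of 2, and leaving out each library 1 to 2. Over all genes these settings called, in that order, 2196, 1072, 1633, 1152 and 1659 in place of 2738. Leaving out each library gave 1291 to 3182. For CMV-miR-29b against Col1a1-miR-29b, DESeq2, counts divided by 4 and the filter of 10 counts gave 1 in place of 0 with and without TGF-β, and leaving out each library 0 to 1 without it. Over all genes these settings called, in that order, 1225, 555 and 563 without TGF-β in place of 382. With TGF-β they called 1095, 558 and 577 in place of 408.

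For the list of 44 genes, TGF-β in the empty vector gave 2 to 4 calls leaving out each library, where 725 to 1428 of all genes were called in place of 1245. TGF-β in Col1a1-miR-29b cells gave 7 with DESeq2, 2 and 1 with limma on log2(FPKM + 0.1) and log2(FPKM + 1), 2 with the replicate block and without the unlettered libraries, and 2 to 4 leaving out each library. TGF-β in CMV-miR-29b cells gave 7 with DESeq2, 2 with the groups compared alone, and 2 to 5 leaving out each library. Col1a1-miR-29b against empty vector without TGF-β gave 5 with DESeq2, 4 with counts divided by 4, 0 with limma, the replicate block and without the unlettered libraries, and 0 to 1 leaving out each library. With TGF-β it gave 4 with the groups compared alone, 4 and 5 with limma on log2(FPKM + 0.1) and log2(FPKM + 1), 5 without the unlettered libraries, 3 with the replicate block, and 4 to 9 leaving out each library. CMV-miR-29b against empty vector with TGF-β gave 1 with DESeq2.

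For CMV-miR-29b against empty vector without TGF-β, the log2 fold change of Plau became -0.00654 with DESeq2, -0.00689 with its size factors, -0.0025 with counts divided by 4, -0.000653 and -0.00536 with filters of 1 and 10 counts, -0.00312 with the groups compared alone, -0.0123 and -0.0109 with limma on log2(FPKM + 0.1) and log2(FPKM + 1), -0.00123 without the unlettered libraries, -0.0136 with the replicate block, -3.69e-06 with total-count scaling, and -0.161 to 0.0664 leaving out each library. That of Plat became -0.00202 with DESeq2, -0.00235 with its size factors, -0.00101 with the filter of 10 counts, and -0.0426 to 0.0445 leaving out each library. Leaving out each library, the other sign changes were Plat for TGF-β in CMV-miR-29b cells (-0.0687 to 0.0185), Col1a1-miR-29b against empty vector without TGF-β (-0.0139 to 0.096), CMV-miR-29b against Col1a1-miR-29b without TGF-β (-0.0925 to 0.00695) and the difference in TGF-β response of CMV-miR-29b (-0.012 to 0.0752), and Plaur for Col1a1-miR-29b against empty vector without TGF-β (-0.051 to 0.119) and the difference in response of CMV-miR-29b (-0.0272 to 0.0832). The cause of these changes was not tested. Letters were not taken to pair libraries, and the replicate block with 16 libraries and the same libraries without it gave the same member counts in the comparisons above.

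Serpine2 and Plg have too few counts for a test of change. FPKM tests hold 16 libraries.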
